A study of Mus musculus with 9 samples.

Results

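The genes described here encode the folding and export machinery of the endoplasmic reticulum (ER), the compartment in which secreted and membrane proteins are made. The list held 42 genes chosen by name, and 40 of them were measured among the 18194 genes tested. Fkbp10 and Sec61g were not analysed here, because no probe set named only that gene. Expression had been measured on Affymetrix mouse arrays in auditory nerve of CBA/CaJ mice of both sexes, aged 8 to 12 weeks, as 3 arrays of neurospheres, 3 of cultured cells and 3 of tissue. Cultured cells were dissociated from the nerve and grown to confluency over 5 to 7 days in medium with 10% serum. Neurospheres, which are cell clusters, were obtained from such cultures after 12 more days in serum-free medium with EGF (20 ng/ml), FGF (10 ng/ml) and heparin (2 µg/ml). Tissue was the dissected nerve, taken without culture. All groups came from mice of 1 strain, the culture protocol names no sorting for a cell type, and no source says whether replicate arrays stand for different mice or cultures. The p-values below thus reflect the spread between these samples alone, and that spread may be technical.

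Proteins enter the ER through the Sec61 channel and are folded there by chaperones, by disulfide isomerases that form and rearrange disulfide bonds, and by isomerases that turn proline bonds. Collagen needs additional helpers, among them a dedicated chaperone and enzymes that hydroxylate lysine. When unfolded proteins accumulate, the sensors IRE1, PERK and ATF6 start the unfolded protein response, in which the transcription factors XBP1, ATF4 and ATF6 raise chaperone genes, partly through a promoter sequence named the ER stress response element (ERSE).

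Values are log2 signals after RMA, the background correction and normalisation that the authors applied, and each gene is given by its brightest probe set. To pass, a gene needed a fold change over 1.5 and a limma p (2-sided), adjusted by Benjamini and Hochberg across all genes, under 0.05. Arrays of 1 group correlated across genes at 0.993 to 0.997, and the median SD of the members between replicate arrays was 0.082 in neurospheres, 0.060 in cultured cells and 0.13 in tissue. The 3′ control probe set of actin exceeded the 5′ one by 0.70 ± 0.15 in neurospheres and 0.36 ± 0.037 in cultured cells, against 2.71 ± 0.35 in tissue (log2, SD, n = 3). For Gapdh the same difference was 0.41 ± 0.12 in neurospheres and 0.19 ± 0.037 in cultured cells, against 1.98 ± 0.46 in tissue. These controls, a measure of RNA integrity, moved with every difference from tissue below, and their part in those differences was not tested. The signals of cell type markers moved as well. The mean level of 3 markers of Schwann cells and other glia was 7.35 to 7.75 in neurospheres and 7.74 to 7.89 in cultured cells, against 12.69 to 12.78 in tissue. That of 5 neuronal markers was 6.33 to 6.53 in neurospheres and 5.95 to 6.26 in cultured cells, against 12.76 to 12.94 in tissue. That of 6 fibroblast markers was 12.29 to 12.42 in neurospheres and 12.00 to 12.27 in cultured cells, against 10.67 to 11.04 in tissue, and of these 6, 5 rose in neurospheres and 3 rose and 1 fell in cultured cells. The mean level of 4 proliferation markers was 9.21 to 9.72 in neurospheres and 11.14 to 11.28 in cultured cells, against 4.18 to 4.39 in tissue, and all 4 rose in both cultures. Of 5 macrophage markers 4 fell in each culture, and of 4 endothelial markers 3 fell in each and 1 rose in neurospheres. The part of any of these cells in the results was not tested. In bulk samples, fewer cells of a type and less RNA per cell cannot be told apart.

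Against tissue, the ER genes mostly rose. In neurospheres 25 of 40 members (62.5%) rose, none fell and 15 did not pass, with a median log2 fold change of 0.95. Of all genes tested, 21.7% rose and 21.0% fell, with a median of 0.05. In cultured cells 26 of 40 (65.0%) rose, none fell and 14 did not pass, with a median of 0.99. There, 20.4% of all genes rose and 22.0% fell, with a median of -0.01. The arrays of the groups did not overlap for 34 members in neurospheres against tissue, 33 of them higher in neurospheres and 1 lower (36.7% and 31.4% of all genes). In cultured cells against tissue, 31 members were higher without overlap and 3 lower (33.8% and 34.8% of all genes). The 2 comparisons share the tissue arrays and so are not independent of each other. Of the 15 members that did not pass in neurospheres, Fkbp9, Hsp90b1, Creld2, Creb3l1 and Xbp1 missed only the fold threshold, with log2 fold changes of 0.38 to 0.48 and limma adjusted p-values of 0.00338 to 0.0205.

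**Figure D1:**
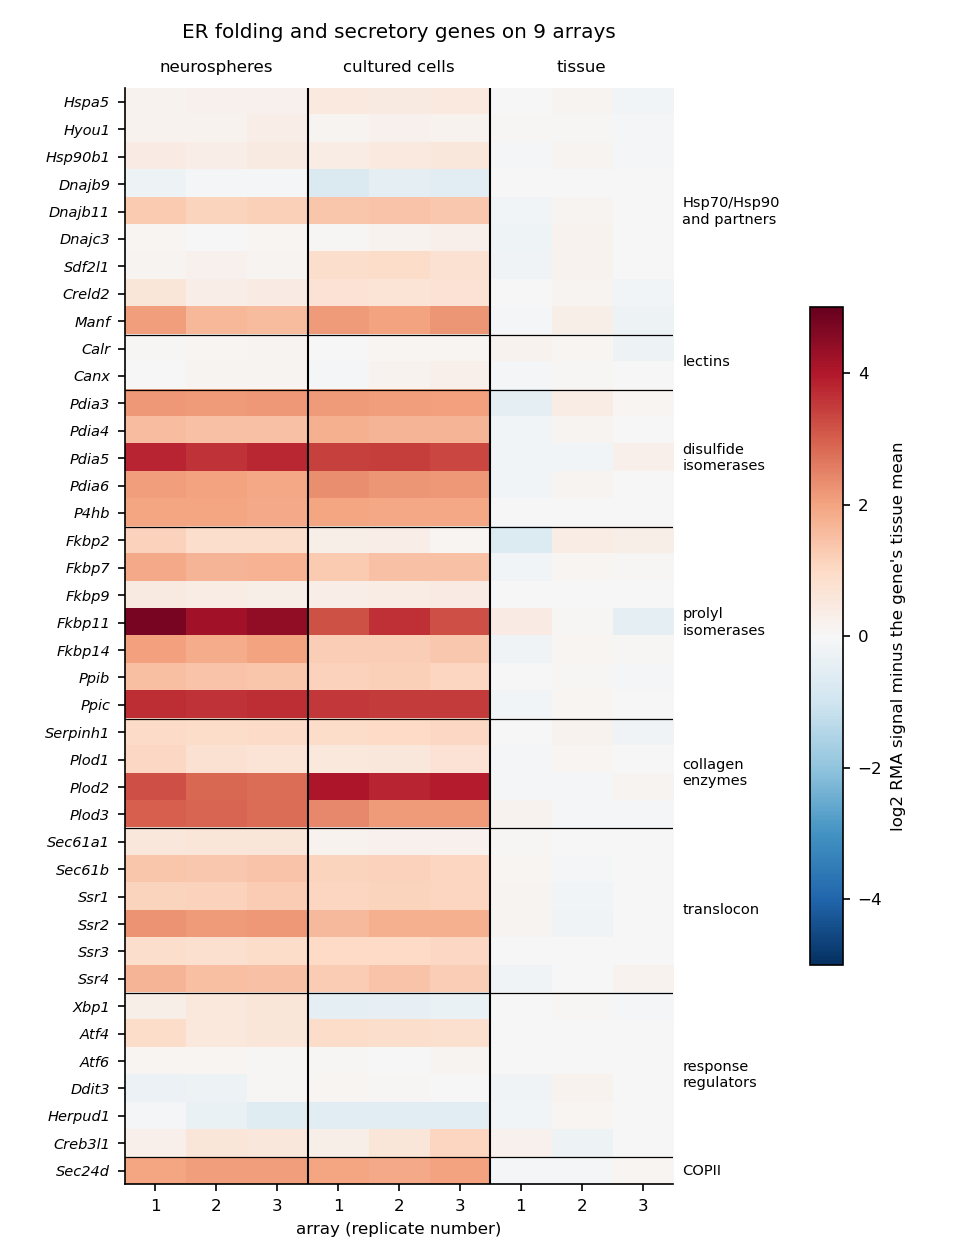
Each cell is the log2 RMA signal of 1 gene (rows, by role) on 1 array (columns, by group) minus the mean of that gene over the 3 tissue arrays. The disulfide isomerases are red on all 6 culture arrays, while the lectin chaperones are near white, with median log2 fold changes of 2.01 and 0.11 in neurospheres against tissue.

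By the brightest probe set of each gene, the rise was uneven between roles. All 5 protein disulfide isomerases rose, with a median of 2.01 in neurospheres and 2.09 in cultured cells. All 4 genes of the collagen chaperone and lysyl hydroxylase group rose (medians 1.92 and 1.60), and Sec24d rose (2.04 and 1.95). Of 7 peptidyl-prolyl isomerases, 6 rose in neurospheres and 5 in cultured cells (medians 1.77 and 1.28). Of 6 translocon genes, 6 rose in neurospheres and 5 in cultured cells (medians 1.28 and 1.10). Among 9 Hsp70 and Hsp90 chaperones and their partners, 2 rose in neurospheres and 4 in cultured cells (medians 0.22 and 0.47). Neither of the 2 lectin chaperones passed (medians 0.11 and 0.10), and of 6 regulators of the unfolded protein response 1 rose in neurospheres and 2 in cultured cells (medians 0.27 and 0.05). The gap between the roles depended on the probe set. With the mean of all probe sets for a gene, 4 of the 9 chaperones and partners rose in neurospheres and 7 in cultured cells (medians 0.50 and 0.85), and the medians of the disulfide isomerases were 1.35 and 1.54. With the next brightest probe set, 5 and 8 of the 9 rose (medians 0.91 and 1.13), against 3 of the 5 disulfide isomerases in each culture (medians 0.68 and 0.85). Over the 9 arrays those probe sets averaged 7.50 for Pdia3, 5.45 for Pdia4 and 6.20 for Pdia6. They averaged 12.37 for Hspa5, 12.24 for Hsp90b1, 11.12 for Dnajc3 and 6.82 for Hyou1. Without probe sets whose ID ending marks them as shared between transcripts, 4 of 4 disulfide isomerases rose in each culture (medians 2.08 and 2.16). Of 7 chaperones and partners, 2 and 5 then rose (medians 0.46 and 0.81). Other roles depended on the probe set too. With the next brightest, 4 of the 7 peptidyl-prolyl isomerases rose in neurospheres and 2 in cultured cells (medians 0.87 and 0.24). In each culture 4 of the 6 translocon genes then rose (medians 1.08 and 0.87), and 3 of the 4 collagen genes (medians 1.78 and 2.03). So did 1 of the 2 lectin chaperones (medians 0.92 and 0.96) and 2 of the 6 regulators (medians 0.47 and 0.40).

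**Figure D2:**
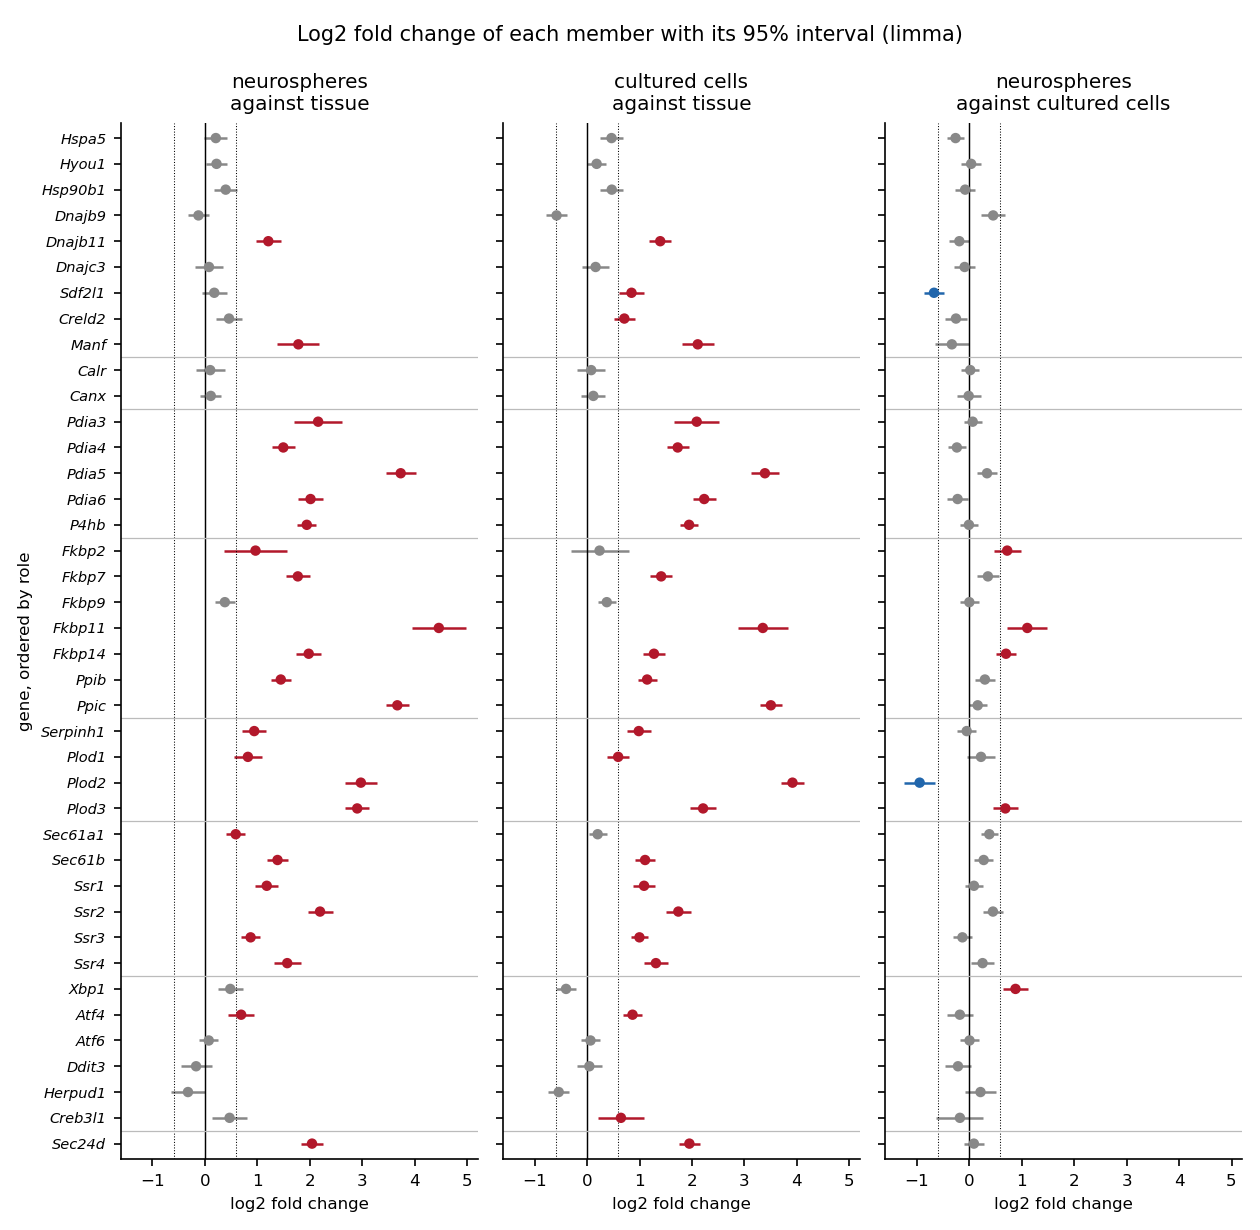
Points are log2 fold changes (x axis) of each member (y axis, by role) with 95% intervals from limma, red for genes that rose, blue for genes that fell and grey for genes that did not pass; dotted lines mark a fold of 1.5. Fkbp11 lies farthest right in neurospheres against tissue, at 4.46, and most members lie near 0 in neurospheres against cultured cells.

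Among the isomerases of disulfide bonds, Pdia5 had the widest difference. It had 10.40, 10.22 and 10.35 (log2) on the neurosphere arrays and 10.00, 10.03 and 9.91 on the cultured cell arrays, against 6.46, 6.45 and 6.86 on the tissue arrays. Every culture array was above every tissue array. The log2 fold change was 3.73 (SE 0.13, limma adjusted p = 2.91e-08) in neurospheres against tissue and 3.39 (SE 0.12, adjusted p = 7.14e-09) in cultured cells against tissue. P4hb, which is protein disulfide isomerase itself and also the beta subunit of the collagen prolyl 4-hydroxylase, was among the brightest members. It had 13.25, 13.24 and 13.18 on the neurosphere arrays and 13.25, 13.20 and 13.23 on the cultured cell arrays, against 11.26, 11.27 and 11.31 on the tissue arrays. It rose by 1.94 (SE 0.079, limma adjusted p = 8.99e-08) in neurospheres and by 1.94 (SE 0.076, adjusted p = 1.51e-08) in cultured cells. Pdia4, a larger family member, had 10.93, 10.87 and 10.88 in neurospheres and 11.19, 11.10 and 11.09 in cultured cells, against 9.26, 9.53 and 9.41 in tissue. Its groups did not overlap, with log2 fold changes of 1.49 in neurospheres and 1.73 in cultured cells. Pdia3, which works with the lectin chaperones on glycoproteins, rose by 2.16 and 2.09, and Pdia6 by 2.01 and 2.23, in neurospheres and cultured cells against tissue.

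Prolyl isomerases catalyse a slow step of folding, in particular for collagen. Fkbp11, an FK506-binding protein of secretory cells, had the largest rise of all members in neurospheres. It had 10.51, 10.00 and 10.20 on the neurosphere arrays and 8.96, 9.42 and 9.0 on the cultured cell arrays, against 6.19, 5.85 and 5.30 on the tissue arrays, so that the 3 groups stood apart. The log2 fold change was 4.46 (SE 0.22, limma adjusted p = 3.07e-07) in neurospheres and 3.35 (SE 0.21, adjusted p = 4.62e-07) in cultured cells against tissue. Both calls rest on this probe set, whose ID ending marks it as shared, that is, able to match several transcripts of 1 gene or of others. Without probe sets so marked the values were 0.49 and 0.42 from a dim probe set, and neither passed. Ppic, cyclophilin C, had 12.41, 12.35 and 12.44 in neurospheres and 12.26, 12.23 and 12.23 in cultured cells, against 8.59, 8.85 and 8.77 in tissue. The culture arrays lay more than 3 log2 units above every tissue array, with log2 fold changes of 3.67 in neurospheres and 3.50 in cultured cells. Ppib, cyclophilin B, which belongs to the collagen prolyl 3-hydroxylase complex, had 13.20, 13.09 and 13.07 in neurospheres and 12.84, 12.86 and 12.76 in cultured cells, against 11.68, 11.72 and 11.62 in tissue. Its rises were 1.45 and 1.14. The other probe set of Ppib, which averaged 12.25 over the 9 arrays, rose in neurospheres (0.87). In cultured cells it was at 0.50 and did not pass. Of the other FK506-binding proteins, Fkbp7 rose by 1.77 and 1.41 and Fkbp14 by 1.98 and 1.28, while Fkbp9 was at 0.38 in both comparisons and did not pass. The other probe set of Fkbp9, which is not marked as shared, rose by 1.35 and 1.38, and the one other probe set of Fkbp14, a dim one, was at 0.24 and 0.13. Fkbp2 rose in neurospheres (0.96, limma adjusted p = 0.0105) and had 0.24 (adjusted p = 0.426) in cultured cells. Its tissue arrays spread widely, at 8.38, 9.44 and 9.37, against 10.23, 9.93 and 9.92 in neurospheres.

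Serpinh1, the collagen chaperone Hsp47, had 13.04, 12.99 and 13.06 in neurospheres and 13.02, 13.10 and 13.11 in cultured cells, against 12.10, 12.25 and 11.93 in tissue. No culture array overlapped the tissue arrays, and the log2 fold changes were 0.94 (SE 0.10, limma adjusted p = 4.56e-05) in neurospheres and 0.99 (SE 0.099, adjusted p = 1.38e-05) in cultured cells. The lysyl hydroxylases modify collagen before it folds. Plod2, which acts on the collagen telopeptides, had the largest rise of all members in cultured cells. It had 12.28, 11.91 and 11.84 in neurospheres and 13.07, 12.84 and 12.95 in cultured cells, against 8.97, 8.96 and 9.18 in tissue. Cultured cells were highest and tissue lowest, with log2 fold changes of 2.97 (SE 0.13, limma adjusted p = 1.46e-07) in neurospheres and 3.91 (SE 0.099, adjusted p = 9.82e-10) in cultured cells. Plod3, a lysyl hydroxylase that also glycosylates hydroxylysine, rose by 2.90 and 2.21. Plod1, which hydroxylates the helical part of collagen, had 9.54, 9.24 and 9.17 in neurospheres and 9.01, 9.06 and 9.21 in cultured cells, against 8.42, 8.60 and 8.48 in tissue. Its rise in cultured cells was 1.51-fold, just over the threshold. Without cultured cell replicate 3, tissue replicate 1 or tissue replicate 3 it did not pass there. With the mean of its probe sets (0.39) or arrays centred on highly expressed genes (0.51) it did not pass there either. The other probe set of Plod1, a dim one, was at 0.50 in neurospheres and 0.19 in cultured cells and passed in neither.

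At the entry to the ER, Sec61b, a small subunit of the channel, had 12.76, 12.70 and 12.78 in neurospheres and 12.47, 12.52 and 12.42 in cultured cells, against 11.46, 11.29 and 11.35 in tissue. The 3 groups did not overlap, with rises of 1.38 in neurospheres and 1.11 in cultured cells. The pore subunit Sec61a1 rose 1.5-fold in neurospheres (0.59), at the threshold itself, a call lost without neurosphere replicate 2 or tissue replicate 2 or 3. All its other probe sets rose in neurospheres too, by 0.62 to 2.17. In cultured cells its brightest probe set was at 0.20 and the next at 0.39, and neither passed, while the others rose by 0.71 to 1.83. The translocon-associated proteins Ssr1 to Ssr4 assist the entry of some chains. Ssr2 rose by 2.19 and 1.74, Ssr4 by 1.57 and 1.31 and Ssr1 by 1.18 and 1.09 in neurospheres and cultured cells. The brightest probe set of Ssr4 is marked as shared. The next one, without that mark, was at 0.01 in neurospheres and at -0.50 (limma adjusted p = 0.000577) in cultured cells, so the rise of Ssr4 in cultured cells rests on the brightest probe set. The third, a dim one that is marked as shared, was at 0.60 in neurospheres, where it rose, and at 0.18 in cultured cells. Ssr3 had 12.63, 12.58 and 12.70 in neurospheres and 12.74, 12.76 and 12.79 in cultured cells, against 11.76, 11.77 and 11.76 in tissue, and rose by 0.87 and 1.0. At the exit, Sec24d, a cargo-binding subunit of the COPII coat, had 11.67, 11.78 and 11.79 in neurospheres and 11.68, 11.58 and 11.70 in cultured cells, against 9.65, 9.65 and 9.81 in tissue. Its rises of 2.04 (SE 0.090, limma adjusted p = 1.47e-07) and 1.95 (SE 0.087, adjusted p = 3.66e-08) were close to the medians of the disulfide isomerases.

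**Figure D3:**
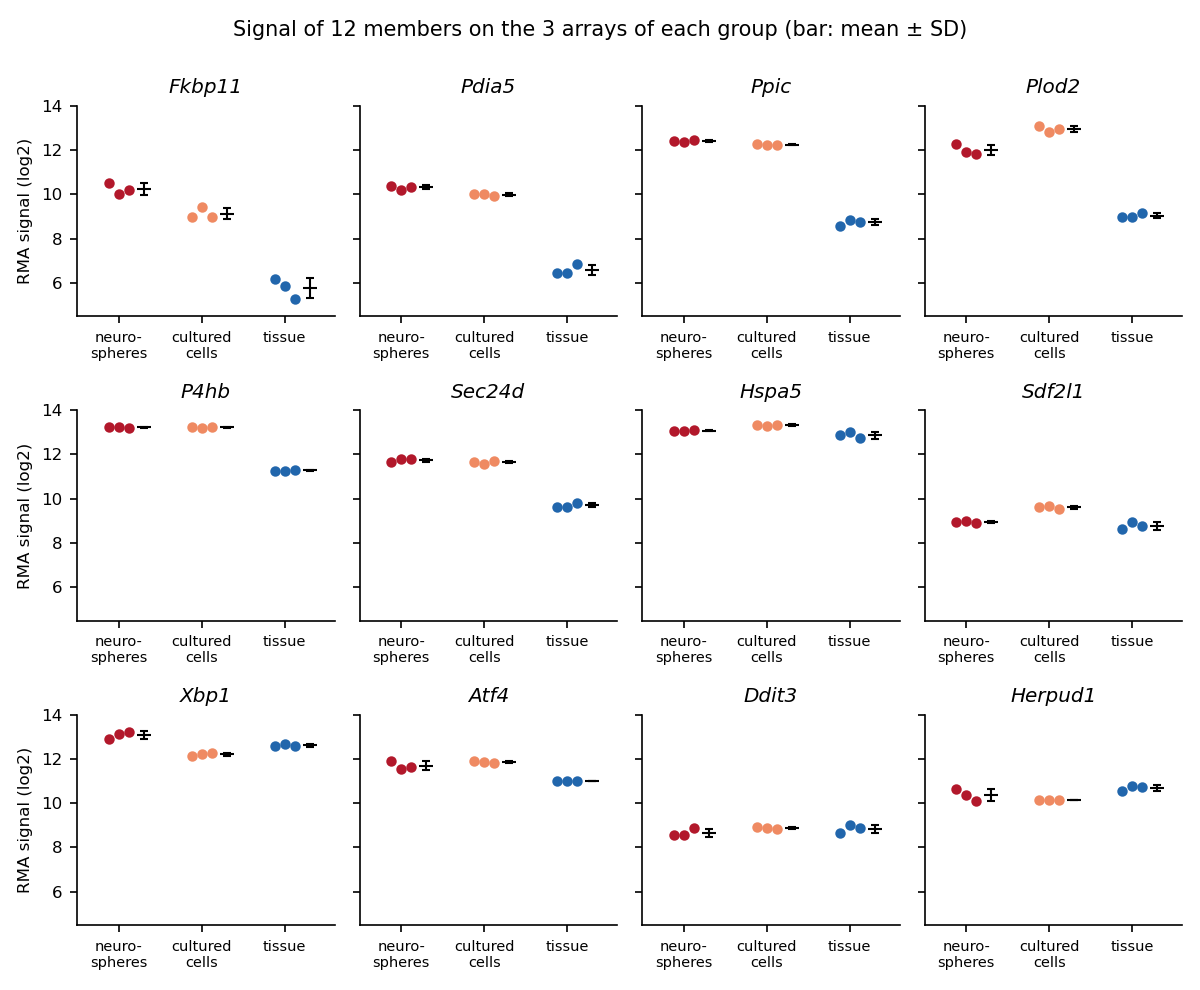
RMA signal (y axis, log2) of 12 members on the 3 neurosphere, cultured cell and tissue arrays, with points for single arrays and a bar for the mean ± SD. Fkbp11, Pdia5, Ppic and Plod2 averaged between 5.78 and 9.04 in tissue and above 9 in both cultures, while Hspa5 averaged 13.07 in neurospheres, 13.33 in cultured cells and 12.86 in tissue.

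By their brightest probe sets, the classical chaperones were bright in all 3 groups and moved less. Hspa5, the Hsp70 of the ER (BiP), had 13.06, 13.07 and 13.08 in neurospheres and 13.35, 13.29 and 13.34 in cultured cells, against 12.86, 13.01 and 12.72 in tissue. The groups did not overlap, yet the log2 fold changes were 0.21 (95% interval -0.01 to 0.43, limma adjusted p = 0.0913) in neurospheres and 0.47 (0.26 to 0.68, adjusted p = 0.00156) in cultured cells, under the fold threshold. Hsp90b1, the Hsp90 of the ER, had 13.05, 12.98 and 13.08 in neurospheres and 13.03, 13.11 and 13.19 in cultured cells, against 12.54, 12.79 and 12.59 in tissue. Both cultures lay above tissue, by 0.40 and 0.47, and did not pass. Hyou1, which recharges BiP with ATP, had 9.94, 9.93 and 10.09 in neurospheres and 9.90, 9.99 and 9.96 in cultured cells, against 9.82, 9.81 and 9.67 in tissue, and its differences were 0.22 and 0.18. Calr, the soluble lectin chaperone calreticulin, had 13.11, 13.12 and 13.18 in neurospheres and 13.07, 13.14 and 13.13 in cultured cells, against 13.20, 13.13 and 12.77 in tissue. Its groups overlapped, with log2 fold changes of 0.10 (95% interval -0.18 to 0.38) and 0.08 (-0.18 to 0.34). Canx, the membrane-bound calnexin, was at 0.11 and 0.12.

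The partners of BiP differed among themselves. Manf, a secreted factor that binds BiP, had 11.86, 11.44 and 11.33 in neurospheres and 11.87, 11.79 and 11.96 in cultured cells, against 9.71, 10.06 and 9.52 in tissue. It rose by 1.78 (SE 0.17, limma adjusted p = 2.46e-05) and 2.11 (SE 0.13, adjusted p = 4.64e-07). Dnajb11, a J-domain co-chaperone of BiP, rose by 1.21 and 1.39. Sdf2l1, which forms a complex with Dnajb11, had 8.93, 9.01 and 8.93 in neurospheres and 9.64, 9.69 and 9.55 in cultured cells, against 8.62, 8.95 and 8.76 in tissue. Neurospheres overlapped tissue (0.18, limma adjusted p = 0.169), while cultured cells were above it (0.85, adjusted p = 5.01e-05). Creld2, a secreted ER protein induced by stress, had 10.23, 9.96 and 10.05 in neurospheres and 10.34, 10.32 and 10.33 in cultured cells, against 9.62, 9.74 and 9.50 in tissue. Neither culture overlapped tissue, and Creld2 passed in cultured cells (0.71) but was at 0.46 in neurospheres. Dnajb9, a co-chaperone that directs unfolded proteins to degradation, had 11.58, 11.78 and 11.76 in neurospheres and 11.12, 11.35 and 11.28 in cultured cells, against 11.85, 11.80 and 11.83 in tissue. All 3 neurosphere arrays and all 3 cultured cell arrays were below the lowest tissue array. The log2 fold changes were -0.12 (limma adjusted p = 0.263) and -0.58 (adjusted p = 0.000251), the second just short of 1.5-fold. Dnajc3, a co-chaperone that also inhibits PERK, was at 0.08 and 0.16 and did not pass.

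The brightest probe sets of the unfolded protein response regulators moved in no common direction. Atf4, the factor downstream of PERK, had 11.91, 11.54 and 11.62 in neurospheres and 11.91, 11.88 and 11.81 in cultured cells, against 10.99, 11.01 and 11.00 in tissue. It rose by 0.69 (SE 0.11, limma adjusted p = 0.00055) in neurospheres and 0.87 (SE 0.078, adjusted p = 5.75e-06) in cultured cells, and without neurosphere replicate 1 it did not pass in neurospheres. The next brightest probe set of Atf4 was at 0.32 and 0.28, and the mean of its probe sets at 0.58 and 0.52, and none of these passed. Its dimmest probe set rose in neurospheres (0.71) and was at 0.41 in cultured cells, where it did not pass. Ddit3, the factor CHOP that acts in prolonged stress, had 8.56, 8.56 and 8.88 in neurospheres and 8.94, 8.88 and 8.82 in cultured cells, against 8.64, 9.0 and 8.86 in tissue. The groups overlapped, with log2 fold changes of -0.17 (95% interval -0.46 to 0.13) and 0.04 (-0.19 to 0.28). Atf6 had 8.59, 8.59 and 8.56 in neurospheres and 8.57, 8.51 and 8.64 in cultured cells, against 8.50, 8.49 and 8.53 in tissue, differences of 0.07 each. Of its 2 dimmer probe sets, 1 rose by 1.15 and 1.52, and the other was at 0.47 and 0.53 and did not pass. Herpud1, a stress-induced component of ER-associated degradation, had 10.63, 10.37 and 10.09 in neurospheres and 10.13, 10.16 and 10.15 in cultured cells, against 10.55, 10.80 and 10.72 in tissue. Cultured cells lay below tissue without overlap (-0.54, limma adjusted p = 0.000446) but under the fold threshold, and neurospheres had -0.32 (adjusted p = 0.0761). Creb3l1, the factor OASIS that drives collagen export in osteoblasts, was the dimmest member. It had 7.23, 7.60 and 7.54 in neurospheres and 7.26, 7.57 and 8.06 in cultured cells, against 7.21, 6.74 and 7.01 in tissue. It passed in cultured cells (0.65, limma adjusted p = 0.0153), a call lost without cultured cell replicate 3 or tissue replicate 2, and was at 0.47 (adjusted p = 0.0205) in neurospheres. Xbp1, the factor downstream of IRE1, had 12.90, 13.14 and 13.23 in neurospheres and 12.14, 12.21 and 12.27 in cultured cells, against 12.60, 12.66 and 12.56 in tissue. Its groups stood apart, neurospheres above tissue by 0.48 and cultured cells below it (-0.40), both under the fold threshold. Of its other probe sets, 2 rose in neurospheres against tissue, by 1.40 and 1.18, and had 0.10 and -0.31 in cultured cells against tissue, where neither passed. The last, a dim one, was at 0.23 and 0.01.

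The size of a change depended on the probe set. Of the 40 members, 26 had more than 1 probe set, 71 in all. Of the 85 probe sets of all members, 50 rose, 1 fell and 34 did not pass in neurospheres against tissue, and 48 rose, 1 fell and 36 did not pass in cultured cells against tissue. For 9 members the brightest probe set did not rise in neurospheres while another did, and the same count held in cultured cells. A second probe set of Hspa5 averaged 12.60 in neurospheres and 12.82 in cultured cells, against 11.69 in tissue, rises of 0.91 and 1.13. A second one of Hsp90b1 averaged 12.48 in neurospheres and 12.83 in cultured cells, against 11.42 in tissue, and one of Canx averaged 11.69 in neurospheres and 11.74 in cultured cells, against 9.96 in tissue. The second probe set of Hsp90b1 thus rose by 1.06 and 1.41 and that of Canx by 1.73 and 1.79. For Dnajc3, 3 of 4 other probe sets rose in neurospheres and all 4 in cultured cells, by up to 2.27 and 2.38. Of the 2 other probe sets of Hyou1, 1 rose in neurospheres, by 0.75, and both rose in cultured cells, by 0.77 and 0.81. The 3 probe sets of Calr lay between 0.10 and 0.21 in neurospheres and between 0.08 and 0.22 in cultured cells, and none passed. The second probe set of Ddit3 averaged 7.23 in neurospheres and 8.17 in cultured cells, against 6.18 in tissue, rises of 1.05 and 1.99, in contrast to the brighter one. In the other direction, 1 probe set of Ssr1 fell (-0.87 and -0.83) while the 3 others rose. The 2 other probe sets of Fkbp11, which averaged 5.68 and 4.20 in neurospheres against 5.65 and 3.71 in tissue, did not pass. Of the 40 members, 20 averaged above 11.27 (log2), the level of the 95th percentile of all genes, and 7 averaged above 12 in every group. For Hspa5, Hsp90b1, Canx and Dnajc3 the brightest probe set changed less than the next one. For other members it changed more, as in neurospheres against tissue for Pdia3 (2.16 against 0.43), Ppib (1.45 against 0.87) and Plod2 (2.97 against 1.74). Whether brightness or RNA integrity sets these gaps was not tested.

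**Figure D4:**
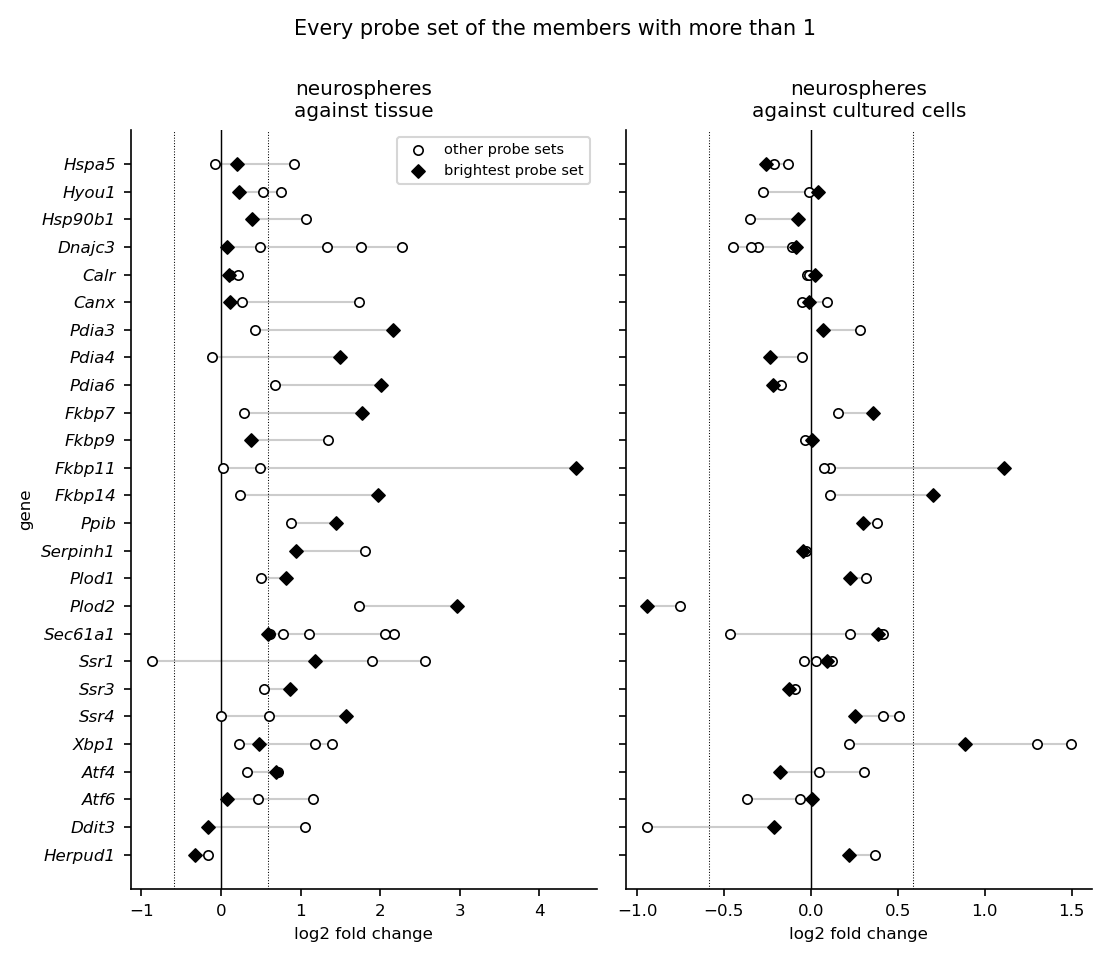
Log2 fold changes (x axis) of every probe set of the 26 members with several (y axis), with black diamonds for the brightest probe set and open circles for the others, in neurospheres against tissue (left) and neurospheres against cultured cells (right); dotted lines mark a fold of 1.5. The probe sets of Dnajc3 spread from 0.08 to 2.27 in the left panel, and both probe sets of Plod2 lie left of -0.7 in the right panel.

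Promoters were searched for the elements through which the unfolded protein response acts. A RefSeq promoter (mouse build GRCm38.p6, 250 bases before to 50 after the start site) was at hand for 33 of the 42 members. The ERSE was searched on both strands as CCAAT, then 9 bases, then CCACG. It stood in 7 of 33 members (21.2%), against 37 of 27025 genes with a promoter (0.137%). The members were chosen by name and include chaperone genes, which the response is known to raise through this element. The higher share is thus no independent result. The 8 sites are printed below along the element with 5 bases on each side, the fixed letters in capitals, because the unfolded protein response is known to act through this element.
Hspa5, chr2:34772020-34772048, + strand: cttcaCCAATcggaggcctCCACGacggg
Hsp90b1, chr10:86705633-86705661, - strand: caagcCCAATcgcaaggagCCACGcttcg
Hsp90b1, chr10:86705528-86705556, + strand: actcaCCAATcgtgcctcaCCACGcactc
Calr, chr8:84847070-84847098, + strand: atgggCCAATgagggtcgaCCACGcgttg
Canx, chr11:50325795-50325823, - strand: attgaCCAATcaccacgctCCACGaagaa
Pdia6, chr12:17266486-17266514, + strand: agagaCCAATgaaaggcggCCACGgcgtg
Dnajc3, chr14:118937822-118937850, + strand: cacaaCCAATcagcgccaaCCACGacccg
Creld2, chr15:88819515-88819543, - strand: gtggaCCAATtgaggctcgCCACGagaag

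Within these sites the 9 bases between the fixed letters differed from gene to gene. Counted from the start site, the site of Hspa5 began at position -65 and the 2 of Hsp90b1 at positions -212 and -107. A related element, ERSE-II, was searched as ATTGG, then 1 base, then CCACG, and stood in 2 of 33 members (6.06%), against 12 genes (0.0444%). The core of the unfolded protein response element, TGACGTG, to which XBP1 and ATF6 bind, stood in 3 members (9.09%), against 2.22% of genes. TGATGCAA, the CHOP-ATF composite or amino acid response element, stood in 1 member (3.03%), against 1.03% of genes. It is labelled CHOP element below, a label that names no bound factor. No site overlapped another. These further sites are shown in the same way, for every member that held one. By their brightest probe sets Sec24d, Fkbp11 and Dnajb11 rose against tissue, and Hspa5 and Herpud1 did not.
Herpud1, ERSE-II, chr8:94386372-94386392, + strand: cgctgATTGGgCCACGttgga
Dnajb11, ERSE-II, chr16:22857847-22857867, + strand: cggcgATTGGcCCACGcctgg
Hspa5, response element core, chr2:34771928-34771944, + strand: agcaaTGACGTGagttg
Sec24d, response element core, chr3:123267465-123267481, + strand: gcgccTGACGTGgcact
Fkbp11, response element core, chr15:98727616-98727632, + strand: aaagcTGACGTGtttca
Herpud1, CHOP element, chr8:94386312-94386329, - strand: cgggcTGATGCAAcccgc

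The members with an ERSE and those without were set side by side, as a description without a test. Of the 7 with an ERSE, 1 (Pdia6) rose in neurospheres against tissue, with a median of 0.21, against 19 of 25 members with a promoter and no ERSE, whose median was 1.21. In cultured cells against tissue 2 of the 7 (Pdia6 and Creld2) rose, with a median of 0.47, against 19 of 25, with a median of 1.11. At least 1 other probe set of each of Hspa5, Hsp90b1, Canx and Dnajc3 rose in both comparisons, as given above. The third ones of Hspa5 and Canx did not pass. This split thus rests on the choice of the brightest probe set. A match of letters shows neither a bound factor nor a cause.

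Fewer of these genes differed between neurospheres and cultured cells, in a share near that of all genes. Of 40 members, 5 rose in neurospheres (12.5%), 2 fell (5.0%) and 33 did not pass, with a median of 0.03. Of all genes, 9.0% rose and 8.91% fell, with a median of 0.05. The arrays did not overlap for 16 members higher and 8 lower in neurospheres (27.8% and 20.6% of all genes). The 5 that rose were Fkbp11 by 1.11 (SE 0.17, limma adjusted p = 0.00114), Xbp1 by 0.88 (SE 0.10, adjusted p = 0.000312), Fkbp2 by 0.73 (SE 0.11, adjusted p = 0.00143), Fkbp14 by 0.70 (SE 0.086, adjusted p = 0.000384) and Plod3 by 0.69 (SE 0.10, adjusted p = 0.00106). Plod2 fell by 0.94 (SE 0.13, limma adjusted p = 0.00071) and Sdf2l1 fell by 0.67 (SE 0.080, adjusted p = 0.00035). All 3 neurosphere arrays of each of these genes lay on 1 side of all 3 cultured cell arrays. For Xbp1, 2 other probe sets rose, by 1.30 and 1.49. All 3 that rose are marked as shared, and the 1 without that mark, a dim one, was at 0.22 (limma adjusted p = 0.143). The rises of Fkbp11 and Fkbp14 also rested on their brightest probe sets. With the next brightest they were at 0.11 each, and with the mean of all probe sets at 0.43 and 0.41, and did not pass. The other probe set of Plod2 fell by 0.75, and the second probe set of Ddit3 fell by 0.94 while its brighter one was at -0.21 (limma adjusted p = 0.164). Of the 5 disulfide isomerases none passed, and P4hb was at 0.00 (95% interval -0.18 to 0.17). Markers of proliferation differed between the cultures too. The mean level of 4, given above with the tissue level, was lower in neurospheres than in cultured cells, and all 4 fell. Of 4 markers of osteoblasts and cartilage, 3 fell, with mean levels of 7.16 to 7.90 in neurospheres and 9.14 to 9.69 in cultured cells. Among 6 fibroblast markers 3 rose and 1 fell in neurospheres against cultured cells, with log2 fold changes from -3.69 to 2.41. A rise was also seen in 1 of 2 neural progenitor markers and 1 of 5 neuronal markers. Another of the 5 neuronal markers fell, as did 1 of 5 macrophage markers. The part of any of these in the differences was not tested.

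Genes that work beside the members were counted in 10 lists, to be read against all genes, of which 21.7% rose and 21.0% fell in neurospheres and 20.4% rose and 22.0% fell in cultured cells against tissue. By the brightest probe set of each gene, those of glycosylation and collagen maturation rose most often against tissue. Of 14 genes of the oligosaccharyltransferase, which adds sugar chains, and of glucose trimming, 11 rose in neurospheres (78.6%) and 12 in cultured cells (85.7%), and none fell (medians 1.25 and 1.08). Tusc3, Ostc and Rpn2, subunits of that enzyme, rose by 1.98, 1.84 and 1.82 in neurospheres. Of 13 partners of collagen hydroxylation and assembly, 10 rose (76.9%) and 1 fell in each culture (medians 1.89 and 1.87). Bmp1, which cleaves procollagen, rose by 3.54 in neurospheres and 1.5 in cultured cells, the prolyl 3-hydroxylases P3h3 and P3h1 rose by 3.31 and 2.81 in neurospheres, and the one that fell was Colgalt2, a collagen galactosyltransferase, with -4.05 and -4.34. Of 15 other genes of oxidative folding, 9 rose in neurospheres (60.0%) and 8 in cultured cells (53.3%), and 1 fell in each. Prdx4, a peroxidase of the ER, rose by 2.40 and 2.19 and Erp29, a thioredoxin-fold protein, by 2.04 and 1.5, while Ero1b, an oxidase for disulfide isomerases, fell (-0.82 and -0.98). Of 23 genes of the COPII coat, cargo receptors and KDEL receptors, 12 rose (52.2%) and none fell in neurospheres, and 11 rose (47.8%) and 1 fell in cultured cells. Kdelr3, a receptor that returns ER proteins from the Golgi, rose by 2.02 and 1.40 and Sec13, a coat subunit, by 1.74 and 1.66.

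Other lists moved less, or both ways. Of 16 genes of signal recognition, signal peptidase and the translocon, 8 rose and 1 fell in neurospheres, and 6 rose and 1 fell in cultured cells. Tram2, a translocon-associated protein of collagen synthesis, rose by 1.91 and 2.21, and Sec11c, a catalytic subunit of signal peptidase, fell (-0.59 and -1.54). Of 16 genes of ER-associated degradation, 5 rose (31.2%) and 1 fell in neurospheres, and 4 rose (25.0%) and 2 fell in cultured cells, shares of rises near those of all genes. Erlec1, an ER lectin, rose by 1.85 and 1.27, and Derl3, of the degradation channel family, fell (-0.85 and -1.14). Of 5 sensors and processing proteases of the response, 2 rose in neurospheres (Atf6b by 1.32 and Mbtps1 by 0.61), and in cultured cells 1 rose (Atf6b, 1.0) and 1 fell (Mbtps2, -0.64). Of 4 relatives of Creb3l1, 1 rose in neurospheres against tissue and against cultured cells and none in cultured cells against tissue. It was Creb3l2, a factor that drives secretory genes in cartilage, at 1.73 and 1.16. Of 21 chaperones outside the ER, 4 rose (19.0%) and 7 fell (33.3%) in neurospheres against tissue, and 5 rose (23.8%) and 3 fell (14.3%) in cultured cells against tissue, with shares of rises near those of all genes. Hspa4, a cytosolic exchange factor, rose by 1.46 and 1.90, and Hspa1a, the inducible Hsp70, fell (-1.15 and -0.95).

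**Figure D5:**
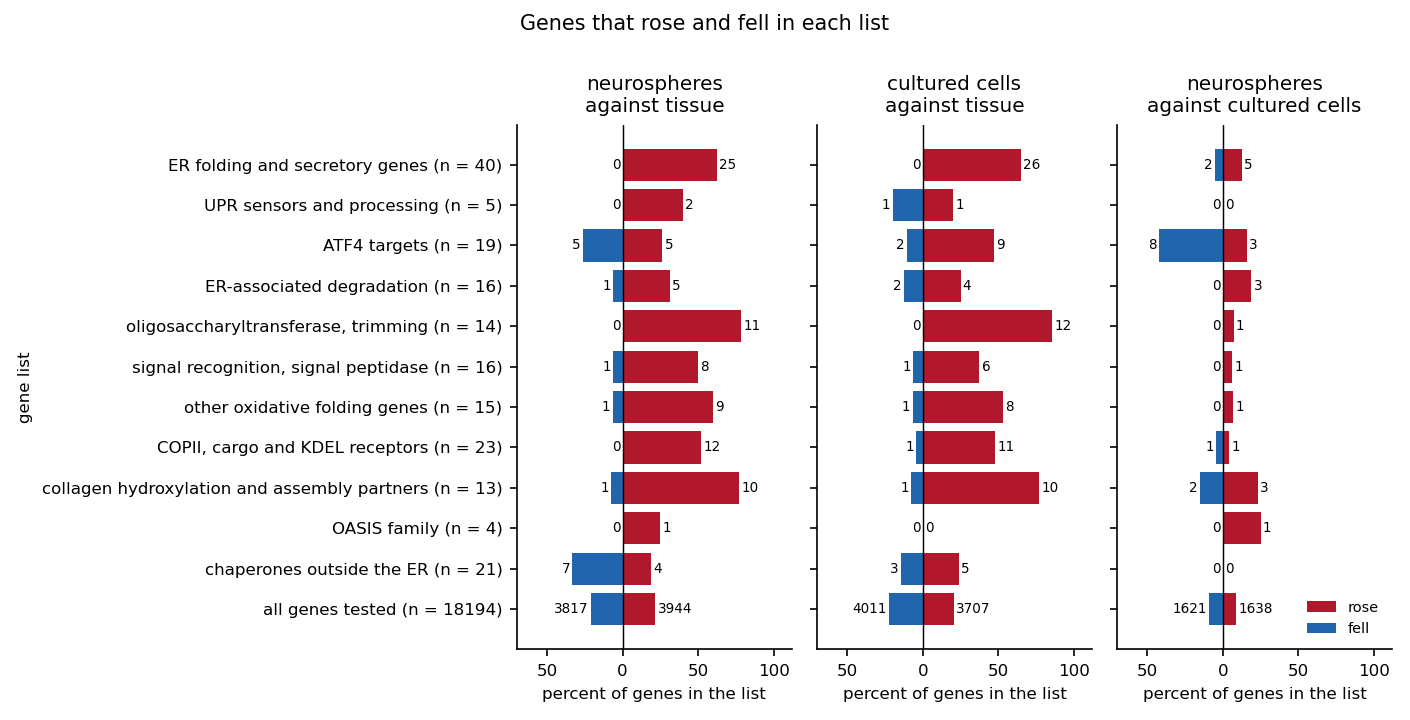
Percent of the measured genes of each list (y axis, with its n) that rose (red, right) or fell (blue, left) in each comparison, with counts beside the bars. In neurospheres against tissue 11 of 14 oligosaccharyltransferase genes rose, and in neurospheres against cultured cells 8 of 19 ATF4 targets fell.

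The targets of ATF4, genes of amino acid supply and stress, differed between the cultures. In neurospheres against tissue 5 of 19 rose and 5 fell (26.3% each, median -0.01), near the 21.7% and 21.0% of all genes. In cultured cells against tissue 9 rose (47.4%, against 20.4% of all genes) and 2 fell (10.5%, against 22.0%), with a median of 0.44. In neurospheres against cultured cells 3 rose (15.8%, against 9.0%) and 8 fell (42.1%, against 8.91%), with a median of -0.52, while Atf4 itself was at -0.18 (95% interval -0.43 to 0.08). Atf3, a stress-induced factor, fell by 1.79. Chac1, which degrades glutathione, fell by 1.70, and Phgdh, the first enzyme of serine synthesis, fell by 1.37. Nupr1, a stress-induced nuclear protein, rose by 2.09, Ddit4, an inhibitor of mTOR signalling, by 1.24 and Cebpb, a transcription factor, by 0.71. Neurospheres and cultured cells had also been kept in different media, without and with serum, for different times, and medium, time and sphere growth cannot be told apart.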

How the data were processed

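The deposited table holds log2 signals of 9 arrays, which the authors made by RMA in Affymetrix Expression Console. The labels also name MAS5, and versions are not given in the sources used here. Of 45037 probe sets that were not controls, 34958 named 1 gene, 932 several and 9147 none in the platform annotation, and symbols were updated through Entrez identifiers to RefSeq GRCm38.p6. The probe set with the highest 9-array mean stood for its gene. Groups were compared with limma 3.58.1 (R 4.3.3, lmFit and eBayes) on the 6 arrays of each comparison, p-values were adjusted over 18194 genes, and the pipeline was tested on simulated data. The number of arrays limits the precision. The study's methods name a t-test, run here as an alternative. The alternatives were other probe sets, scalings, filters, thresholds, fits and left-out arrays. The members and lists were chosen with earlier results of these data known, from textbook roles. Every member was named, with array values for a fixed set (of which Fkbp10 was not analysed) and for the 3 largest rises and falls, and up to 3 of each from a list.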

Additional observations from a re-analysis of the deposited data

How the results depend on the processing

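For neurospheres against tissue, 24 to 25 members rose and none fell without any 1 array, with medians of 0.90 to 1.07, and the median was 1.18 without probe sets marked as shared, which left 33 members. For cultured cells against tissue, 24 to 26 rose without any 1 array, with medians of 0.95 to 1.01, and the median was 0.86 when probe sets were averaged and 0.83 with the next brightest probe set, chosen after seeing the data. The members that fell there numbered 3 without a fold threshold, 2 when centred on highly expressed genes, 2 with quantile normalization and 0 to 1 without any 1 array (Herpud1 without tissue replicate 1, Dnajb9 without tissue replicate 2 or cultured cell replicate 2 or 3). For neurospheres against cultured cells, 5 rose and 2 fell without any 1 array, with medians of 0.01 to 0.05. There 12 rose and 4 fell without a fold threshold, 1 rose and 0 fell at a fold over 2, and 3 rose with the mean of probe sets, without shared probe sets or with the next brightest (Fkbp11 was lost in all 3, Fkbp14 in the first and last and Xbp1 in the second). Directions turned for Pdia4 (-0.12) and Ddit3 (1.05) in neurospheres against tissue with the next brightest probe set. In cultured cells against tissue they turned for Ssr4 (-0.50, with the next brightest and without shared probe sets), Pdia4 (-0.064) and Fkbp11 (-0.075, both with the next brightest). The next brightest probe sets of Pdia4 and Fkbp11 were dim, averaging 5.45 and 5.64 over the 9 arrays. The methods' t-test lost Fkbp2 in neurospheres and Creb3l1 in cultured cells against tissue. Quantile normalization moved the median of all genes in cultured cells against tissue to 0.11, against -0.01. With the replicate number as a block, 25, 26 and 5 members rose in the 3 comparisons, the same counts as without it. Same-numbered arrays correlated at -0.190 to 0.206, not over 0.1 in every pair, and the numbers were used only as names. With 3 arrays per group, such correlations cannot settle whether the numbers pair samples. A slide or scan block was not run, as no scan data were at hand. Precision is limited by 3 arrays per group.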
